A study of Rattus norvegicus with 38 samples.

Results

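Lung expression was compared in 38 female rats to ask where the change with cigarette smoke differed between a line bred for high running capacity and a line bred for low running capacity. The measure is the line by smoke interaction: smoke minus sham in the low capacity runners (LCR), minus smoke minus sham in the high capacity runners (HCR). All 38 of the 38 arrays entered it, and 14217 genes were tested from 31099 probe sets. A gene with several probe sets is represented by the one of highest mean across the arrays. Both lines descend from N:NIH rats, and all animals were 34 weeks old. The groups were HCR sham (n = 7), HCR smoke (n = 12), LCR sham (n = 7) and LCR smoke (n = 12). Sham animals breathed room air and smoke animals cigarette smoke, 5 days per week, until the lungs were collected at 12 weeks. Each animal gave RNA from about 25 mg of lung, hybridised to its own Affymetrix Rat Genome 230 2.0 array.

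The HCR and LCR lines were selected over generations for how far an untrained animal runs before exhaustion, and differ at many loci, so a line difference is not that of a single gene. Low capacity runners are known for a less favourable metabolic profile than high capacity runners. Cigarette smoke reaches the lung as a mix of aryl hydrocarbons, oxidants and particles. Epithelial cells answer with detoxifying enzymes, and macrophages take up particles and lipid in their lysosomes. An interaction does not ask whether smoke acted, but whether its effect had the same size in both lines. A positive value means that the smoke change was more positive in LCR than in HCR, and a negative value that it was more negative. Changes are differences of log2(intensity + 16), a scale that understates the change of dim genes, and an error after ± is a standard error from limma.

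The tissue read as lung on every array. Sftpc, surfactant protein C of alveolar type 2 cells, lay between 9830 and 10920, and Scgb1a1, the club cell secretoglobin, between 9614 and 11120, near the highest intensity of the table, 11560. Heart muscle markers differed widely between pieces of lung, and their list mean was high on HCR sham 0433, LCR sham 0442 and HCR smoke 0410, 0414, 0415 and 0417. HCR sham 0433 also had the highest skeletal muscle and fat cell means. HCR sham 0432 had the largest Actb 3' minus 5' difference of its group, a sign of RNA quality, at 2.06 against a group median of 0.72. Numbers of the arrays follow the groups block by block, and an order effect and a group effect cannot be told apart. The number of arrays limits the precision, and in a piece of tissue fewer cells of a type and less RNA per cell cannot be told apart.

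Far more genes passed for smoke than for the interaction. At an adjusted p under 0.05, smoke changed 6830 genes in HCR (48.0% of those tested, 17.7% upward and 30.4% downward) and 7193 in LCR (50.6%, 22.7% upward and 27.9% downward). The interaction passed for 266 genes (1.87%), and 216 of them (1.52% of those tested) had a more positive smoke change in LCR and 50 (0.352%) a more negative one. The median size among the 266 was 0.34, while 39 reached 1.5-fold and 3 reached 1 on the log2 scale. The 3 were Fkbp5, Mro and Pcp4l1. Called smoke changes had median sizes of 0.23 in HCR and 0.25 in LCR. The interaction had the larger standard error, for Fasn 0.10 against 0.07, so larger differences were needed to pass. Across all genes tested the median interaction was 0.02, 57.8% of the interactions were above 0, and 2657 genes had an unadjusted p under 0.05.

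**Figure D1:**
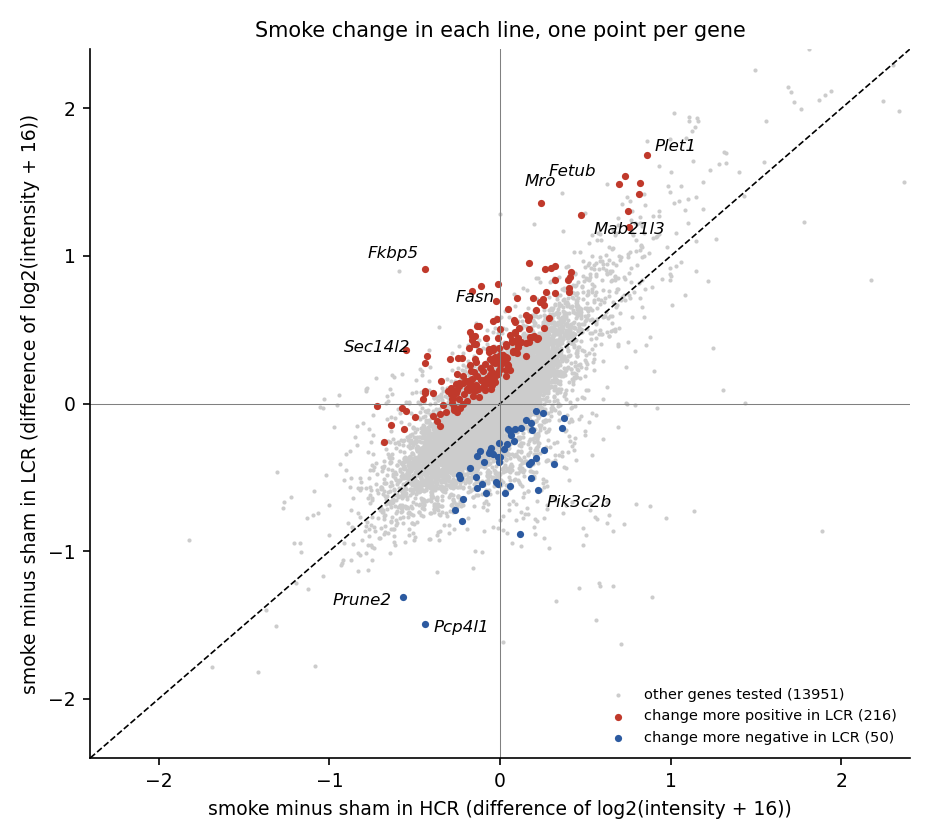
Each point is 1 of 14217 genes, with the smoke change in HCR on the horizontal axis and in LCR on the vertical axis, both as differences of log2(intensity + 16). The 216 red genes lie above the dashed line of equal change and the 50 blue genes below it. The axes end at 2.4, and 16 genes beyond them, 0 of them called, are not shown.

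The 266 genes had several shapes. In 135 smoke changed the gene in LCR alone at the threshold, upward in 104 and downward in 31. In 48 it did so in HCR alone, upward in 6 and downward in 42. Another 51 moved the same way in both lines by unequal amounts, 39 of them upward. Smoke moved the gene in opposite directions in 32, and in 27 of these it rose in LCR and fell in HCR. Among the 216 genes with a positive interaction the median smoke change was -0.05 in HCR and 0.29 in LCR. Among the 50 with a negative one it was 0.01 in HCR and -0.36 in LCR.

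The same genes can be read by line. Under sham the 216 positive genes had a median LCR minus HCR difference of -0.19, and under smoke of 0.13. The 50 negative genes had medians of 0.21 under sham and -0.12 under smoke. The sign of the line difference turned with exposure in 250 of the 266 genes, against 6836 of all 14217 tested. The line difference itself passed the threshold under sham for 122 of the 266 (3.73% of all genes did) and under smoke for 106 (6.32% of all genes). It passed under both with opposite signs for 10. The interaction is built from these differences, so the counts describe the genes and are not further evidence. The intensity ranges of the lines did not overlap under sham for 29 of the 266, against 0.858% of all genes, and under smoke for 2, against 0.0844%.

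**Figure D2:**
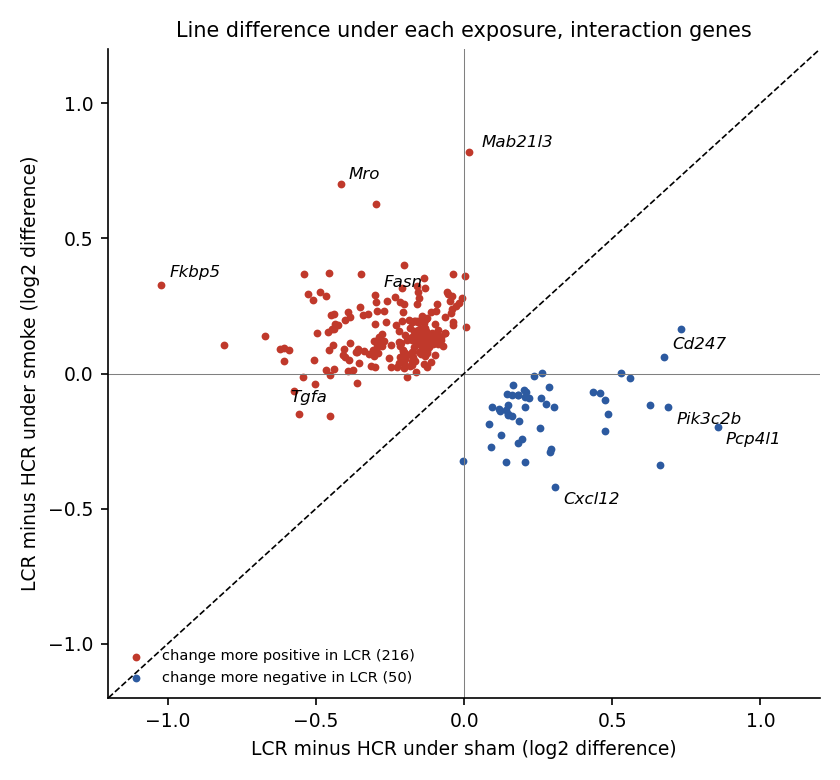
The LCR minus HCR difference under sham (horizontal) is set against that under smoke (vertical) for the 266 interaction genes, in log2 units. Red genes gather at the upper left, lower in LCR under sham and higher under smoke, and blue genes at the lower right. The dashed line marks an equal line difference under both exposures.

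The count of 266 moved with single arrays and settings. It was 768 without HCR sham 0432 and 518 without HCR sham 0439. It fell to 81, 129 and 107 without HCR sham 0434, 0435 and 0436, and to 114, 152 and 103 without LCR sham 0441, 0442 and 0445. Among smoke arrays it was 404 and 175 without HCR smoke 0412 and 0419, and 417 and 170 without LCR smoke 0420 and 0429. Without the 6 arrays of high muscle markers it was 58, of which 43 were among the 266, and 70.7% of the 58 were positive. The share of positive genes was 81.2% in the main count, 90.0% once each array was centred on its median, 71.8% under quantile normalization, 61.6% with all probe sets and 58.5% without the 6 arrays and HCR sham 0432. Of the 266 genes, 32 passed with each array left out and under every alternative in which they were measured, other than the size threshold of 1 log2. They are said below to have passed throughout. Of the 55 named genes that passed, 33 lost their call without the 6 arrays, and the 22 that kept it were 20 of those 32 genes with Bcl11b and Eomes. Single arrays whose absence ended the most of these 55 calls were HCR sham 0436 (29), 0434 (28) and 0435 (24) and LCR sham 0445 (24), 0441 (22) and 0442 (20).

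The best known smoke responses showed no interaction that passed. Cyp1a1, the aryl hydrocarbon receptor target that oxidises smoke hydrocarbons, rose by 7.19 ± 0.14 in HCR and 7.13 ± 0.14 in LCR, an interaction of -0.07 with a 95% interval from -0.47 to 0.33. Nqo1, a quinone reductase, rose by 2.34 and 1.98, with an interaction of -0.36 (-0.69 to -0.02, adjusted p = 0.232). Of 7 aryl hydrocarbon receptor targets none passed in limma, and the median interaction was -0.03. An unadjusted p under 0.05 was found for 3 of the 7, against 2657 of all 14217 genes. Hmox1, which breaks down haem, had an interaction of 0.33 (-0.46 to 1.12). The macrophage elastase Mmp12 was at -0.18 (-1.30 to 0.94) and the neutrophil chemokine Cxcl1 at 0.18 (-0.27 to 0.63). Lpo, the airway lactoperoxidase, rose by 3.41 and 4.10, an interaction of 0.69 (-0.44 to 1.83). These intervals do not show that the lines responded alike, since several include a difference of 1 log2.

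Of 28 genes of fatty acid and cholesterol synthesis, 11 rose and 3 fell with smoke in LCR, while 1 rose and 9 fell in HCR. Over all genes, 22.7% rose and 27.9% fell in LCR, and 17.7% rose and 30.4% fell in HCR. The share of the list that fell in HCR was thus near that of all genes. The interaction passed for 5 of the 28, against 1.87% of all genes, and all 5 were positive: Fasn, Nsdhl, Elovl1, Fdps and Stard4. It passed for Fasn alone when the 6 arrays of high muscle markers were left out. The list's median interaction was 0.18 against 0.02 over all genes, and 23 of 28 values were above 0, against 57.8% of all genes. Fdps makes farnesyl diphosphate on the way to cholesterol (interaction 0.35 ± 0.09, adjusted p = 0.0411), and Stard4 carries cholesterol between membranes (0.33 ± 0.09, adjusted p = 0.0417). Both were named after their values were seen. Fdps passed in 25 and Stard4 in 20 of 38 fits with 1 array left out, and without the 6 arrays they were 0.36 (adjusted p = 0.0859) and 0.24 (adjusted p = 0.113).

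Fasn, the fatty acid synthase, read from 1810 to 2428 in HCR sham with a median of 1960, and from 1648 to 2422 in HCR smoke with a median of 2017. It read from 1484 to 1970 in LCR sham (median 1701) and from 2118 to 2778 in LCR smoke (median 2496). In LCR all 12 smoke animals lay above all 7 sham animals, while the HCR groups overlapped. The smoke change was 0.57 ± 0.07 in LCR and -0.02 ± 0.07 in HCR, an interaction of 0.59 ± 0.10 (adjusted p = 0.00221). Fasn was lower in LCR than in HCR under sham, by 0.30 (adjusted p = 0.0238), and higher under smoke, by 0.29 (adjusted p = 0.00323). A second Fasn probe set gave 0.83, and Fasn was among the 32 genes that passed throughout.

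Nsdhl, a sterol dehydrogenase of the last steps to cholesterol, read from 124.7 to 153.1 in HCR sham (median 144.0) and from 124.6 to 171.7 in HCR smoke (143.3). In LCR it read from 128.2 to 141.5 under sham (138.8) and from 151.6 to 205.0 under smoke (177.5). The LCR smoke range began above the highest LCR sham animal, and the HCR ranges overlapped. Its interaction was 0.32 ± 0.07 (adjusted p = 0.0216). Elovl1, which lengthens very long fatty acids, had an interaction of 0.30 ± 0.07 (adjusted p = 0.0171), with medians of 955.4 and 894.0 in HCR and 843.7 and 989.7 in LCR. All 12 LCR smoke animals lay above the sham median for Elovl1, against 1 of 12 in HCR. Both calls held with each array left out and ended without the 6 arrays of high muscle markers, where Nsdhl was 0.28 (adjusted p = 0.0941) and Elovl1 0.26 (adjusted p = 0.10).

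Many promoters of lipid synthesis genes carry CCAAT boxes, which bind the factor NF-Y beside sterol response elements. The promoters of the called members found in the RefSeq table (3 of 5) are shown, with each CCAAT, or ATTGG on the other strand, in capitals. They were picked as called members of the list, and shared regulation was not tested. They run from 250 bases before to 50 after the gene's start in the GRCr8 build: Nsdhl at chrX:155817110-155817409 on the plus strand, Fdps at chr2:176804767-176805066 on the minus strand, and Elovl1 at chr5:137247905-137248204 on the plus strand.
Nsdhl: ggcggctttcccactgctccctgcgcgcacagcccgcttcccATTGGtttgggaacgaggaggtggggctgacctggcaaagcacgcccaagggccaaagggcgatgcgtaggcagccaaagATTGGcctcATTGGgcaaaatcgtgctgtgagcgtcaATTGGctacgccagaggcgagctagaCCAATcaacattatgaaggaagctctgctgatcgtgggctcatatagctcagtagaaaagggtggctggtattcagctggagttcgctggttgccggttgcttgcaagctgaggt
Fdps: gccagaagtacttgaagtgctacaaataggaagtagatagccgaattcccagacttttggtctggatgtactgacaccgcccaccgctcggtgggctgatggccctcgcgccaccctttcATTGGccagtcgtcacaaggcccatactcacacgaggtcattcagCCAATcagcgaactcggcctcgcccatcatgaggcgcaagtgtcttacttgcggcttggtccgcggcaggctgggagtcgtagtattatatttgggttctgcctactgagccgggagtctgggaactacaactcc
Elovl1: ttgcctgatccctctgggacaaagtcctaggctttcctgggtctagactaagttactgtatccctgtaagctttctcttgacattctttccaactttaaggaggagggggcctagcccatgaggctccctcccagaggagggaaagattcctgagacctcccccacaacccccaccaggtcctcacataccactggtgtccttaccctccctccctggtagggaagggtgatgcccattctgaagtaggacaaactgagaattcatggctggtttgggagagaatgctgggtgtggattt
Nsdhl held 5 matches, Fdps 2 and Elovl1 0. Among 33469 promoters in the table, 37.5% held at least 1 match, 11.2% at least 2 and 0.218% at least 5. A match is a run of letters and does not show that a factor binds there.

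Other genes of lipid and sugar metabolism passed as well. Khk, the ketohexokinase that starts fructose use, rose by 0.38 ± 0.05 in LCR against -0.01 ± 0.05 in HCR (interaction 0.38 ± 0.07, adjusted p = 0.00221). Its intensity was low, with medians of 29.1 and 31.3 in HCR and 24.3 and 37.6 in LCR, and the LCR groups did not overlap. Sec14l2, a lipid carrier that stimulates squalene epoxidation, ran in opposite directions. It fell with smoke in HCR from a median of 151.4 to 104.4 and rose in LCR from 97.35 to 127.2. None of 12 HCR smoke animals and all 12 LCR smoke animals lay above their sham median, and the interaction was 0.75 ± 0.13 (adjusted p = 0.00391).

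Pnpla2, the lipase that opens triglyceride stores, fell in HCR by 0.44 and was 0.07 (adjusted p = 0.484) in LCR, an interaction of 0.51 ± 0.11 (adjusted p = 0.0171). HCR sham animals reached the highest values, at 861.8 to 1469, and the other 3 groups lay between 592.3 and 922.8. Pnpla2 is also a fat cell marker here, and the fat marker list was highest on HCR sham 0433. Its call held without that array and ended without the 6 arrays (0.40, adjusted p = 0.117). Pla1a, a phospholipase that acts on phosphatidylserine, fell in HCR and rose in LCR (0.41 ± 0.08, adjusted p = 0.00924). The sham lines did not overlap for Pla1a, at 760.5 to 964.4 in HCR and 459.2 to 642.0 in LCR. Paqr4, a membrane protein of the adiponectin receptor family, also fell in HCR and rose in LCR (0.60 ± 0.10, adjusted p = 0.00221), from a median of 157.4 to 150.3 and of 129.5 to 179.0.

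Mtfp1, which promotes mitochondrial division, had an interaction of 0.55 ± 0.10 (adjusted p = 0.00537) and Ucp2, an uncoupling carrier, of 0.42 ± 0.08 (adjusted p = 0.00924). Prelid1, which moves phosphatidic acid into mitochondria, rose in both lines, by 0.17 and 0.42 (interaction 0.25 ± 0.05, adjusted p = 0.00976). Mocs2, of molybdenum cofactor synthesis, fell in HCR and rose in LCR (0.34 ± 0.07, adjusted p = 0.00976). Pfkp, a phosphofructokinase of glycolysis, gave 0.32 ± 0.09 (adjusted p = 0.0491), and passed in 13 of the 38 fits with 1 array left out. Of 22 fatty acid oxidation genes 20 had positive interactions, against 57.8% of all genes, with a median of 0.22. None of these 22 passed in limma, and 8 had an unadjusted p under 0.05, against 2657 of all 14217 genes. Outside the list, 2 enzymes of fatty acid oxidation named after their values were seen did pass. They were Hsd17b4 (0.38, adjusted p = 0.0209) and Acad11 (0.30, adjusted p = 0.0294). Without the 6 arrays of high muscle markers they were 0.32 (adjusted p = 0.125) and 0.30 (adjusted p = 0.0619). Of 36 genes of the respiratory chain and citrate cycle 0 passed, 2 had an unadjusted p under 0.05, and the median was 0.05.

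**Figure D3:**
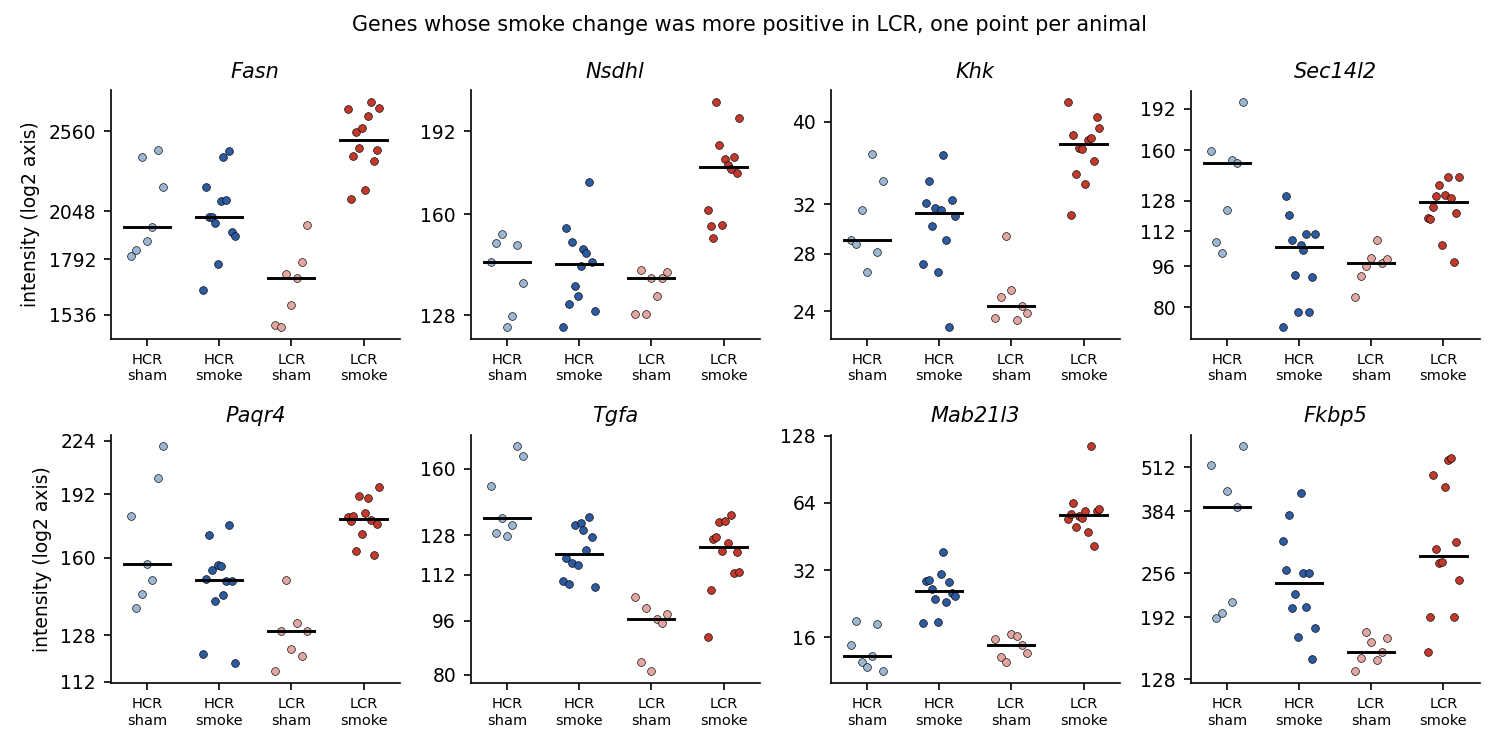
Intensity of 8 genes with a positive interaction in each animal on a log2 axis, grouped by line and exposure, with a bar at each group median (n = 7 or 12). For Fasn, Nsdhl, Khk, Paqr4 and Mab21l3 all LCR smoke animals lie above all LCR sham animals, and for Fkbp5 and Tgfa the HCR sham animals lie above the LCR sham animals.

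Of 23 macrophage markers, 13 rose with smoke in HCR and 18 in LCR, against 17.7% and 22.7% of all genes. The median interaction was 0.41, with 20 of 23 positive, against 57.8% of all genes. The interaction passed for 3, against 1.87% of all genes: Lgals3, Mrc1 and Pparg. Of 30 lysosome genes 22 rose in HCR and 25 in LCR, again against 17.7% and 22.7% of all genes. All 30 had positive interactions, with a median of 0.19, against 57.8% of all genes above 0. The interaction passed for 5 of the 30, against 1.87% of all genes: Ctsh, Gla, Npc2, Ctss and Acp5. When the 6 arrays of high muscle markers were left out, 0 macrophage markers passed in limma, and 12 had an unadjusted p under 0.05. Over all genes 2230 of 14217 had such a p without these arrays. Ctsh was the 1 lysosome gene that passed without them, and 25 of the 30 lysosome values were positive. The summed intensity of the macrophage markers was 24960 to 29790 in HCR sham, 29650 to 42180 in HCR smoke, 22210 to 27050 in LCR sham and 33880 to 42380 in LCR smoke. The smoke groups had medians of 37100 and 37800, while the LCR sham median, 24160, was below the HCR sham median, 28430. None of these markers was at 0, but the lowest intensity of any probe set was 2.09, so this does not show detection. The part of macrophage number in the lysosome result was not tested.

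Lgals3, the galectin that activated macrophages and epithelium make, read from 2133 to 3107 in HCR sham and from 3004 to 5275 in HCR smoke. In LCR it read from 1325 to 2503 under sham and from 4080 to 5372 under smoke. The medians were 2655, 4620, 2029 and 4769, so the lines differed more under sham than under smoke. It rose by 0.75 in HCR and 1.30 in LCR (interaction 0.55 ± 0.14, adjusted p = 0.0317). The call ended when HCR sham 0434, 0435 or 0436 or LCR sham 0440, 0441 or 0445 was left out, with an adjusted p of up to 0.0655, and without the 6 arrays (0.58, adjusted p = 0.0798). Mrc1, the mannose receptor of resident macrophages, had medians of 757.1 and 774.6 in HCR and 533.9 and 885.9 in LCR (0.62 ± 0.16, adjusted p = 0.0361), and passed in 25 of 38 fits with 1 array left out. Pparg, a lipid-sensing nuclear receptor of alveolar macrophages, gave 0.48 ± 0.13 (adjusted p = 0.0426) and passed in 16 of 38. Mrc1 was 0.57 (adjusted p = 0.131) and Pparg 0.41 (adjusted p = 0.17) without the 6 arrays.

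Ctsh, a lysosomal protease of macrophages and type 2 cells, was the lysosome gene that passed throughout. Its medians were 3959 and 4508 in HCR and 3291 and 5002 in LCR, and the LCR groups did not overlap (0.40 ± 0.08, adjusted p = 0.0104). Gla, which removes galactose from glycolipids, fell by 0.17 in HCR and rose by 0.16 in LCR (0.33 ± 0.08, adjusted p = 0.0271). Leaving out HCR sham 0434 or 0436 ended its call, with an adjusted p of up to 0.0568, as did leaving out the 6 arrays (0.32, adjusted p = 0.0588). Npc2, which hands cholesterol out of the lysosome, had an interaction of 0.29 ± 0.07 (adjusted p = 0.0317). It lost its call without HCR sham 0434, 0435 or 0436 or LCR sham 0441, 0442 or 0445 (adjusted p up to 0.0635), and without the 6 arrays (0.26, adjusted p = 0.105). Ctss, an antigen-processing protease, and Acp5, an acid phosphatase, gave 0.44 (adjusted p = 0.0408) and 0.68 (adjusted p = 0.0335), both named after their values were seen. Ctss passed in 20 and Acp5 in 31 of 38 fits with 1 array left out, and without the 6 arrays they were 0.43 (adjusted p = 0.112) and 0.66 (adjusted p = 0.105).

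Epithelial lists differed in direction, against 57.8% positive over all genes. Alveolar type 1 markers were positive for 12 of 15 (median interaction 0.08). Negative values were found for 10 of 15 club cell and airway P450 genes (-0.10) and 17 of 18 ciliated cell markers (-0.43). They were also found for 10 of 18 mucous cell markers (-0.03) and 6 of 9 basal cell markers (-0.03). Por was the 1 call of the club cell list and Pigr of the mucous list, against 1.87% of all genes. Of 19 alveolar type 2 markers 13 rose with smoke in LCR and 5 in HCR, against 22.7% and 17.7% of all genes. Of their interactions 17 were positive, against 57.8% of all genes. The 2 that passed, against 1.87% of all genes, were Fasn and Ctsh, which are lipid and lysosome genes as well. None of the surfactant protein genes passed. Sftpd gave 0.26 ± 0.07 (adjusted p = 0.0577), while Sftpc, at 0.05 ± 0.03 (adjusted p = 0.313), read near the top of the scale in every group, where a difference may not show. Sfta2, a small secreted protein of type 2 cells, read from 316.5 to 643.7 in HCR sham and from 344.3 to 939.7 in HCR smoke. In LCR it read from 261.5 to 413.6 under sham and from 547.1 to 797.6 under smoke. The LCR groups were apart and the HCR groups overlapped (interaction 0.78 ± 0.19, adjusted p = 0.0271). Its call ended without HCR sham 0435 or 0436 or LCR sham 0445 (adjusted p up to 0.0578), and without the 6 arrays of high muscle markers (0.78, adjusted p = 0.0806).

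Plet1, a surface protein of lung epithelial cells, rose in both lines with no overlap in either. Its range was 788.9 to 1223 in HCR sham and 1265 to 2481 in HCR smoke, and 563.0 to 1074 in LCR sham and 1933 to 2749 in LCR smoke. The rise was 0.86 in HCR and 1.68 in LCR (interaction 0.82 ± 0.16, adjusted p = 0.00924), and its other 2 probe sets gave 1.04 and 0.98. Fetub, a secreted protease inhibitor of the fetuin family, had medians of 1111 and 1749 in HCR and 670.0 and 1956 in LCR. It was lower in LCR than in HCR under sham and higher under smoke, each past the threshold (interaction 0.79 ± 0.15, adjusted p = 0.00924). Pigr, which carries IgA across epithelium, rose by 0.26 in HCR and 0.51 in LCR (0.25 ± 0.06, adjusted p = 0.0171). Without the 6 arrays its interaction was 0.23 (adjusted p = 0.0798).

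Of 37 antioxidant and glutathione genes 2 passed, against 1.87% of all genes, the microsomal glutathione transferases Mgst2 and Mgst1. Mgst2 rose by 0.17 in HCR and 0.59 in LCR (interaction 0.42 ± 0.07, adjusted p = 0.00235), with medians of 1264 and 1348 in HCR and 963.4 and 1453 in LCR. Mgst1 was 0.01 (adjusted p = 0.85) in HCR and rose by 0.28 in LCR (0.27 ± 0.06, adjusted p = 0.0171). For both genes the LCR smoke range lay above the LCR sham range, and the HCR ranges overlapped. Mgst2 passed throughout, and Mgst1 was 0.24 without the 6 arrays (adjusted p = 0.0809). The list's median interaction was 0.10. Slc47a1, which pumps organic cations out of cells, rose by 0.73 and 1.54 (0.81 ± 0.22, adjusted p = 0.0452), and Por, which feeds electrons to P450 enzymes, gave 0.45 ± 0.12 (adjusted p = 0.0423). Slc47a1 passed in 13 and Por in 23 of 38 fits with 1 array left out, and without the 6 arrays Por was 0.50 (adjusted p = 0.0559).

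Fkbp5, a chaperone of the glucocorticoid receptor and itself a target of glucocorticoids, had the largest positive interaction among the 266 genes that passed. It read from 190.7 to 588.8 in HCR sham (median 395.6), 145.9 to 432.1 in HCR smoke (239.9), 134.7 to 174.6 in LCR sham (153.3) and 153.5 to 544.9 in LCR smoke (287.7). LCR sham animals were low and close together, and no LCR sham animal reached the lowest HCR sham animal, while the smoke groups overlapped across the lines. Smoke raised it in LCR by 0.91 ± 0.23 and the HCR change was -0.44 ± 0.23 (adjusted p = 0.117), an interaction of 1.35 ± 0.33 (adjusted p = 0.0286). A second probe set gave 1.30. The call ended without HCR sham 0434, 0435 or 0436 or LCR sham 0445 (adjusted p up to 0.0635), and without the 6 arrays the value was 1.51 (adjusted p = 0.0522).

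Of 19 glucocorticoid responsive genes, 8 fell and 2 rose with smoke in HCR, and 4 fell and 8 rose in LCR. Over all genes, 30.4% fell and 17.7% rose in HCR, and 27.9% fell and 22.7% rose in LCR. The interaction was positive for 16 of 19, against 57.8% of all genes, with a median of 0.34. It passed for 2, Fkbp5 and Cebpb, against 1.87% of all genes, and for 0 in limma without the 6 arrays, where both were still positive. Without them 10 of the 19 had an unadjusted p under 0.05, against 2230 of all 14217 genes. Cebpb, a transcription factor of acute responses, gave 0.39 ± 0.11 (adjusted p = 0.0478) and passed in 14 of 38 fits with 1 array left out. Values for Pdk4, 0.55 (adjusted p = 0.271), and Tsc22d3, 0.41 (adjusted p = 0.232), well known targets named after their values were seen, did not pass, and Per1 was at -0.06 (adjusted p = 0.941).

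Among signalling and secreted proteins, Tgfa, a ligand of the EGF receptor, was the growth factor that passed. It read from 127.4 to 172.7 in HCR sham and from 80.91 to 103.9 in LCR sham, with no overlap. Under smoke the ranges were 107.6 to 136.1 in HCR and 90.8 to 136.9 in LCR, so the line difference was present under sham and near 0 under smoke (-0.01, adjusted p = 0.92). Tgfa fell in HCR by 0.22 and rose in LCR by 0.31 (interaction 0.53 ± 0.09, adjusted p = 0.00221), and a second probe set gave 0.46. Mst1, a growth factor of another family named after its value was seen, gave 0.42 (adjusted p = 0.0411). It passed in 19 of 38 fits with 1 array left out, and was 0.28 (adjusted p = 0.221) without the 6 arrays of high muscle markers. Mmp19, a matrix protease, had sham medians of 20.4 in HCR and 20.6 in LCR and rose in LCR (0.36 ± 0.10, adjusted p = 0.0428). Ptgds, a prostaglandin D synthase, fell in HCR by 0.34 (0.49 ± 0.13, adjusted p = 0.0449). Both were dim, and each passed in 17 of 38 fits.

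Mab21l3 was the named gene whose lines did not overlap under smoke. This member of the Mab-21 family read from 11.2 to 18.8 in HCR sham and from 12.4 to 16.5 in LCR sham. After smoke it read from 18.4 to 38.4 in HCR and from 40.9 to 115.0 in LCR. It rose by 0.47 in HCR and 1.28 in LCR (interaction 0.80 ± 0.14, adjusted p = 0.00221) and passed throughout. Mro, known from reproductive tissue, rose in LCR from a median of 13.8 to 64.5 with no overlap and had medians of 20.7 and 27.9 in HCR (1.12 ± 0.21, adjusted p = 0.00812).

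The remaining genes with the largest positive values among those called passed in fewer fits. Chodl, a membrane lectin, gave 0.91 ± 0.24 (adjusted p = 0.0375) and passed in 29 of 38 fits with 1 array left out. The keratin Krt79 gave 0.93 ± 0.25 (adjusted p = 0.0452) and passed in 17, and Slc7a7, a carrier of cationic amino acids, 0.83 ± 0.22 (adjusted p = 0.044) and passed in 14. Kcnmb4, a subunit of calcium-activated potassium channels, fell in HCR by 0.55 and rose in LCR by 0.36 (0.92 ± 0.22, adjusted p = 0.0271). Leaving out HCR sham 0434, 0435 or 0436 ended its call (adjusted p up to 0.0635), as did leaving out the 6 arrays (0.88, adjusted p = 0.0822). Edem1 and Rnh1 were firmer and passed throughout. Edem1, which sends misfolded proteins to degradation, was lower in LCR sham (639.1 to 868.5) than in HCR sham (873.1 to 1276) with no overlap. It rose in LCR to 1007 to 1365 (0.46 ± 0.10, adjusted p = 0.0169). Rnh1, the ribonuclease inhibitor, gave 0.27 ± 0.05 (adjusted p = 0.00537), and the sham lines did not overlap for it either.

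T cell genes were among those with negative interactions. Of 22 T cell markers, 12 fell and 2 rose with smoke in LCR, while 2 fell and 4 rose in HCR. Over all genes, 27.9% fell and 22.7% rose in LCR, and 30.4% fell and 17.7% rose in HCR. The interaction passed for 4 of 22 (Cd3g, Cd247, Lck and Bcl11b, all negative), against 1.87% of all genes, and the median over the list was -0.31 against 0.02 over all genes. Their summed intensity had medians of 1597 in HCR sham (1288 to 2528), 1748 in HCR smoke (1485 to 2190), 2253 in LCR sham (1908 to 2556) and 1665 in LCR smoke (1430 to 2126). LCR sham animals had the highest median, and HCR sham 0432, the array with the large Actb difference, was the highest of its own group. None of the markers was at 0, but no probe set was (lowest intensity 2.09), so this does not show detection.

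Cd247, the zeta chain of the T cell receptor complex, read from 38.6 to 114.8 in HCR sham (median 50.6), 48.1 to 77.3 in HCR smoke (61.3), 88.4 to 140.7 in LCR sham (99.8) and 47.8 to 91.9 in LCR smoke (66.4). All 12 LCR smoke animals lay below the LCR sham median. Cd247 fell in LCR by 0.56 and was 0.06 (adjusted p = 0.703) in HCR, an interaction of -0.62 ± 0.16 (adjusted p = 0.0335). It was higher in LCR than in HCR under sham, by 0.67 (adjusted p = 0.00141), and a second probe set gave an interaction of -0.39. Bcl11b, a transcription factor that T cells need, ran from 42.9 to 82.0 in LCR sham and from 32.6 to 43.4 in LCR smoke, and its HCR ranges overlapped (-0.58 ± 0.14, adjusted p = 0.0271).

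Cd3g, a chain of the CD3 complex, gave -0.69 ± 0.19 (adjusted p = 0.0452), with medians of 122.6 and 155.2 in HCR and 195.5 and 131.1 in LCR. The kinase Lck, which starts T cell receptor signalling, gave -0.58 ± 0.15 (adjusted p = 0.0434), with medians of 153.6 and 201.0 in HCR and 278.6 and 204.7 in LCR. All 12 HCR smoke animals lay above the HCR sham median for both genes, although the HCR change passed for neither. Of the fits with 1 array left out, Cd3g passed in 16, Lck in 18, Cd247 in 33 and Bcl11b in 35. Without the 6 arrays of high muscle markers the values were -0.74 (adjusted p = 0.0784), -0.65 (adjusted p = 0.0705), -0.68 (adjusted p = 0.0758) and -0.69 (adjusted p = 0.0335) in the order Cd3g, Lck, Cd247 and Bcl11b. The mean of the probe sets of Bcl11b did not pass (adjusted p = 0.0835).

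Other lymphocyte lists had mostly negative interactions with few calls. Of 22 cytotoxic lymphocyte markers 20 had negative interactions, with a median of -0.47, while 57.8% of all genes had positive ones. With smoke 8 fell in LCR and 0 in HCR, against 27.9% and 30.4% of all genes, so the LCR count was not far above the overall share. The 1 of 22 that passed, against 1.87% of all genes, was Eomes, a transcription factor of cytotoxic T and NK cells. Eomes gave -0.51 ± 0.12 (adjusted p = 0.0271), with medians of 14.3 and 14.4 in HCR and 28.0 and 13.0 in LCR. It lost its call without HCR sham 0434 or 0436 or LCR sham 0441 or 0445 (adjusted p up to 0.0583). Prf1, the pore-forming perforin, had a larger value that did not pass, -1.11 ± 0.46 (adjusted p = 0.182), with HCR sham animals from 49.5 to 514.1. B and plasma cell markers had a median of -0.40 and 0 of 16 passed in limma, with 9 at an unadjusted p under 0.05. Interferon response genes had a median of -0.23 and 0 of the 34 listed passed, with 9 at an unadjusted p under 0.05. Interferon-inducible genes outside the list, named after their values were seen, passed in opposite directions. They were Irgm2 (-0.47, adjusted p = 0.0317) and Ifitm2 (0.27, adjusted p = 0.0375). Over all genes 2657 of 14217 had an unadjusted p under 0.05.

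Cxcl12, the stromal chemokine that retains lymphocytes, was the 1 of the 39 listed cytokine and chemokine genes that passed, against 1.87% of all genes. It fell in LCR by 0.41 and was 0.32 (adjusted p = 0.058) in HCR, an interaction of -0.73 ± 0.20 (adjusted p = 0.0449). Its medians were 403.6 and 478.2 in HCR and 488.6 and 386.6 in LCR, and it passed in 20 of 38 fits with 1 array left out. It was -0.63 (adjusted p = 0.135) without the 6 arrays. Of its other probe sets, 1 gave -0.70 and 1 gave -0.27. Ccl6, a chemokine outside the list and named after its value was seen, was positive (0.39, adjusted p = 0.0298). It passed in 34 of 38 fits with 1 array left out, and was 0.33 (adjusted p = 0.129) without the 6 arrays. Mnda, of the interferon-inducible nuclear protein family of myeloid cells, gave -0.998 ± 0.24 (adjusted p = 0.0297), but its other probe set gave -0.12. Without HCR sham 0434, 0435 or 0436 or LCR sham 0441 or 0445 the Mnda call ended (adjusted p up to 0.0635).

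**Figure D4:**
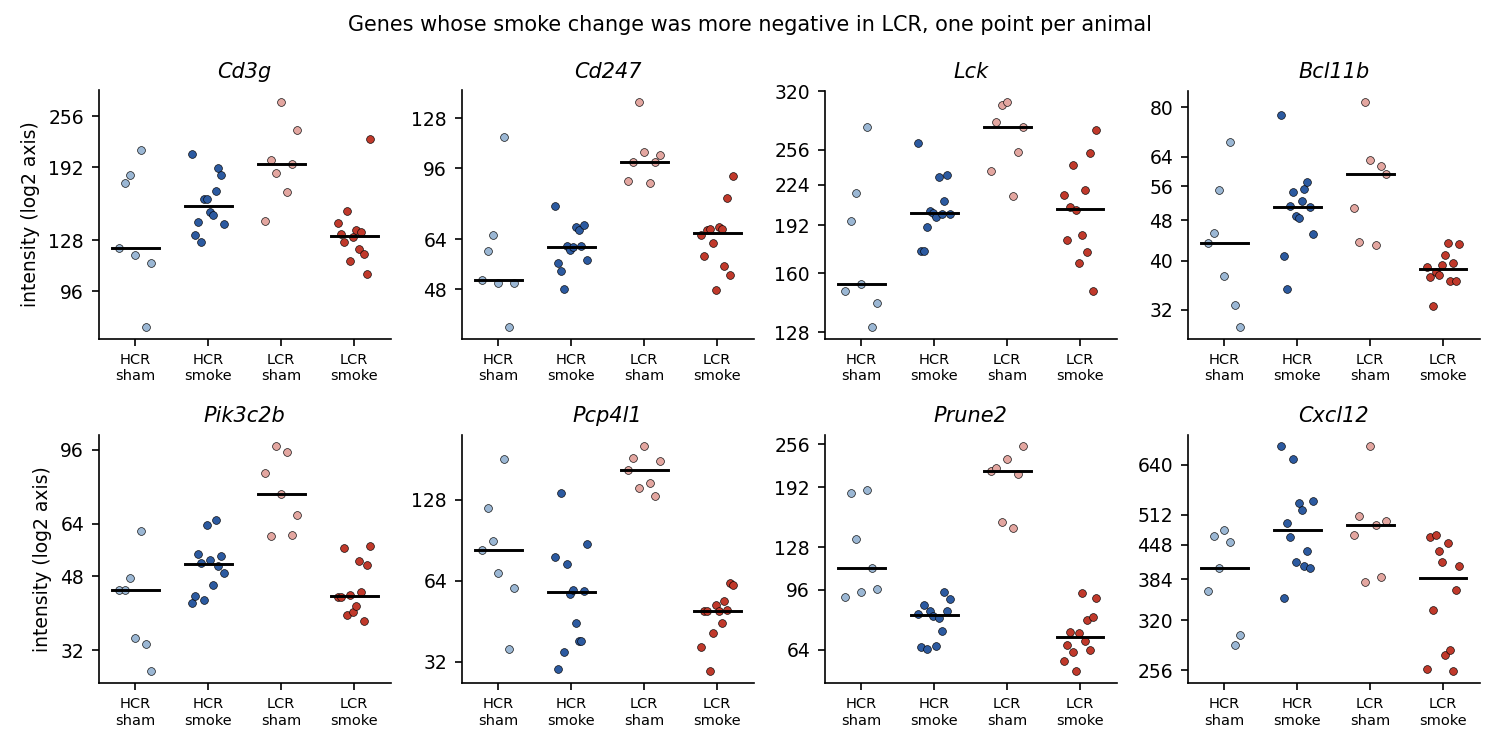
Intensity of 8 genes with a negative interaction in each animal on a log2 axis, grouped by line and exposure, with a bar at each group median (n = 7 or 12). LCR sham animals have the highest median for all 8 genes, for Cxcl12 at 488.6 against 478.2 in HCR smoke. LCR smoke animals lie below all LCR sham animals for Pik3c2b, Pcp4l1 and Prune2.

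Pik3c2b, a class II phosphoinositide kinase, had the negative interaction with the smallest adjusted p. It read from 28.5 to 61.6 in HCR sham and from 41.4 to 65.2 in HCR smoke, and from 59.9 to 98.0 in LCR sham and from 37.6 to 56.6 in LCR smoke. LCR smoke animals all lay below LCR sham animals, and HCR smoke animals overlapped HCR sham. The gene rose in HCR by 0.22 (adjusted p = 0.0439) and fell in LCR by 0.59, an interaction of -0.81 ± 0.13 (adjusted p = 0.00221), and it passed throughout. A second, dim probe set gave -0.01. Hnrnph1, a splicing regulator, also passed throughout with opposite smoke changes (-0.26 ± 0.05, adjusted p = 0.00924).

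Pcp4l1, a calmodulin-binding protein in the smooth muscle list, read from 35.7 to 182.6 in HCR sham, 30.1 to 136.0 in HCR smoke, 132.6 to 203.3 in LCR sham and 29.4 to 62.6 in LCR smoke. LCR animals were apart by exposure and HCR animals overlapped (interaction -1.05 ± 0.27, adjusted p = 0.0356; a second probe set gave -0.96). Its call ended in 10 of 38 fits with 1 array left out. Prune2 fell in both lines, by 0.57 in HCR and 1.31 in LCR (-0.74 ± 0.16, adjusted p = 0.0169), and held with each array left out. Dmpk, a kinase of muscle cells, gave -0.57 ± 0.15 (adjusted p = 0.043) and passed in 19 of 38.

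Of 22 smooth muscle and pericyte markers 15 fell in LCR and 7 in HCR, against 27.9% and 30.4% of all genes. The median interaction was -0.40, and 15 had an unadjusted p under 0.05, against 2657 of all 14217 genes. Pcp4l1 was the single call among these markers, against 1.87% of all genes. Their summed intensity was 8766 to 12360 in HCR sham, 7197 to 16370 in HCR smoke, 10320 to 18270 in LCR sham and 6552 to 10090 in LCR smoke. Heart muscle markers had a median interaction of -1.35 with 0 of 19 passing in limma and 0 at an unadjusted p under 0.05. Their sum ran from 370.6 to 6052 in HCR sham, 375.4 to 19420 in HCR smoke, 347.3 to 26670 in LCR sham and 314.5 to 1678 in LCR smoke. None of these markers was at 0, but no probe set was (lowest intensity 2.09), so this does not show detection. Without the 6 arrays high in heart muscle markers Pcp4l1 was -0.87 (adjusted p = 0.10), Prune2 -0.71 (adjusted p = 0.0705) and Dmpk -0.39 (adjusted p = 0.13).

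Shc2, a signalling adaptor, gave -0.63 ± 0.16 (adjusted p = 0.0344) and -0.38 without these arrays (adjusted p = 0.114). Its highest value, 89.6, was on LCR sham 0442, and a second, dim probe set gave 0.01. The Shc2 call also ended without HCR sham 0434 or 0436, LCR sham 0442 or 0445 or LCR smoke 0429 (adjusted p up to 0.0635). Susd4, a membrane regulator of complement, gave -0.57 ± 0.14 (adjusted p = 0.0322), with medians of 26.1 and 31.6 in HCR and 37.9 and 27.6 in LCR. It lost its call without HCR sham 0434, 0435 or 0436 or LCR sham 0445 (adjusted p up to 0.0635) and without the 6 arrays (-0.63, adjusted p = 0.0556). Rxrg, a retinoid receptor, fell in both lines (-0.46 ± 0.12, adjusted p = 0.0462), passed in 17 of 38 fits, and had a second, dim probe set at -0.03.

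Several cell types and programmes held no call. Over all genes 2657 of 14217 had an unadjusted p under 0.05. With smoke, 17.7% of all genes rose in HCR and 22.7% in LCR, and 30.4% and 27.9% fell. Ciliated cell markers had a median interaction of -0.43 with 0 of 18 passing in limma and 1 at an unadjusted p under 0.05. Neutrophil markers had a median of 0.27 with 0 of 10 and 1. Of 39 cell cycle genes, 24 rose in HCR and 27 in LCR, and 35 had a positive interaction with a median of 0.12, yet 0 passed and 14 had an unadjusted p under 0.05. Endothelial markers fell in 17 of 29 in HCR and 18 in LCR, with a median of -0.03, 0 passing and 3 at an unadjusted p under 0.05.

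The 32 genes that passed throughout had a median size of 0.41, and 28 of them were positive. Of the genes described above they hold Fasn, Khk, Sec14l2, Paqr4, Pla1a, Mtfp1, Ucp2, Prelid1, Mocs2, Ctsh, Plet1, Fetub, Mgst2, Tgfa, Mab21l3, Mro, Edem1 and Rnh1, and with negative values Pik3c2b and Hnrnph1. The other 12, named after their values were seen, are Gipc1, Chn2, Lrmda, Rnf181, Ogt, Trarg1, Ap1m2, Prkd1, Edem2, Rab25, Rnasek and Txndc12. Ogt (-0.36), which adds the sugar N-acetylglucosamine to proteins, and Chn2 (-0.53), a regulator of Rac signalling, were negative and the other 10 positive. Trarg1 takes part in glucose transporter traffic, and Rab25 and Ap1m2 sort proteins in epithelial cells. A dim gene was not measured under the filter on low intensity, so its passing rests on the remaining alternatives.

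**Figure D5:**
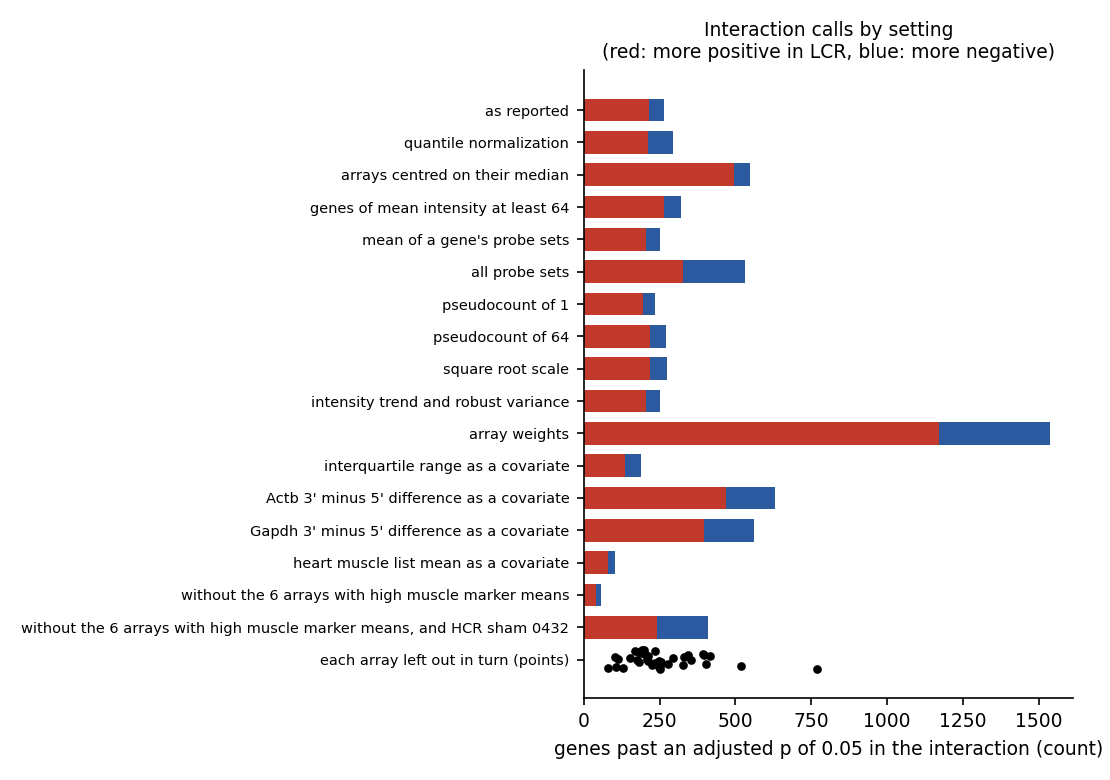
Bars give the number of genes past an adjusted p of 0.05 in the interaction under each setting, split into positive (red) and negative (blue), and points give the number with each of the 38 arrays left out. The reported count of 266 sits within a span from 58 without the 6 arrays to 1537 with array weights, and positive genes are the larger part of every bar.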

How the data were processed

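Groups were taken from the sample titles. The authors deposited 1 intensity per probe set and array on a linear scale (31099 probe sets, 2.09 to 11560). How these intensities were summarised and normalized is not given in the sources available. They were taken to log2(intensity + 16) and not normalized again. The platform annotation gave 1 symbol for 20826 probe sets, several for 436 and none for 9780, besides 57 controls; 20758 matched a RefSeq gene ID. Each of 14217 genes was read from its brightest singly annotated probe set, and 4525 had more than 1 to choose from.

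The 4 group means were fitted with limma 3.58.1 (lmFit and eBayes, two-sided) in R 4.3.3, with 34 residual degrees of freedom. Benjamini-Hochberg adjustment covered all 14217 genes, with a threshold of 0.05. On simulated data, 200 of 14217 genes changed in the interaction, the test recovered 79% of changes of 0.5 log2 and 99% of 1 log2, with 3.78% false calls. The simulated noise was normal and independent between genes, without array-wide differences. The real arrays differed in muscle markers and RNA quality, so these rates may not hold for them. Named genes were the 12 largest interactions per direction among genes past the threshold, up to 3 called members of each of 44 gene lists by p, up to 8 called genes with opposite smoke changes and up to 8 with opposite line differences, and 9 reference genes. The members, lists and alternatives were chosen with earlier results of these data known. Promoters came from RefSeq (GRCr8). Figures were drawn with matplotlib 3.10.9.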

Additional observations from a re-analysis of the deposited data

Results flagged for a closer look

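The smoke change differed between the lines, by the interaction test in limma, for each of the 55 named genes that passed, and their interactions are collected here in log2 units. More positive in LCR were Fkbp5 1.35, Mro 1.12, Krt79 0.93, Kcnmb4 0.92, Chodl 0.91, Slc7a7 0.83, Plet1 0.82, Slc47a1 0.81, Mab21l3 0.80 and Fetub 0.79. Further positive values were Sfta2 0.78, Sec14l2 0.75, Mgst2 0.42, Mgst1 0.27, Lgals3 0.55, Mrc1 0.62, Pparg 0.48, Ctsh 0.40, Gla 0.33 and Npc2 0.29. Others above 0 were Fasn 0.59, Elovl1 0.30, Nsdhl 0.32, Pfkp 0.32, Pigr 0.25, Por 0.45, Pnpla2 0.51, Edem1 0.46, Cebpb 0.39 and Mmp19 0.36. The remaining genes above 0 were Ptgds 0.49, Tgfa 0.53, Paqr4 0.60, Pla1a 0.41, Ucp2 0.42, Mocs2 0.34, Khk 0.38, Mtfp1 0.55, Rnh1 0.27 and Prelid1 0.25. More negative in LCR were Pcp4l1 -1.05, Mnda -0.998, Pik3c2b -0.81, Prune2 -0.74, Cxcl12 -0.73, Cd3g -0.69, Shc2 -0.63, Cd247 -0.62, Bcl11b -0.58 and Lck -0.58. Further below 0 were Susd4 -0.57, Dmpk -0.57, Eomes -0.51, Rxrg -0.46 and Hnrnph1 -0.26.

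Of 152 groups of 7 tested for an animal set apart from the rest, 13 (8.6%) had one, where chance gives about 1 in 20. Values here are log2(intensity + 16), and for a marker list the mean over its genes. LCR sham 0442 was highest for Shc2 (6.72), Mmp12 (6.34), the heart muscle list (9.20) and the skeletal muscle list (6.11), and lowest for Edem1 (9.36). LCR sham 0441 was highest for Cd247 (7.29) and Khk (5.50) and lowest for Prelid1 (9.10). HCR sham 0439 was lowest for Mgst2 (9.999) and Npc2 (12.02). HCR sham 0433 was highest for Cyp1a1 (5.02), the skeletal muscle list (10.30) and the fat cell list (8.46).

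Probe sets with no gene symbol lie outside the comparisons above. With all 31042 probe sets that are not controls in 1 fit, 150 of 9780 without a symbol passed in the interaction (1.53%), against 1.79% of those with a symbol. Of the 150, 42 were positive and 108 negative, while positive values were the larger part of the named genes.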

How the results depend on the processing

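Of the interactions of the 55 named genes that passed, none reversed under the alternatives or with an array left out. Under the alternatives 760 values kept their call, and 109 kept their direction but did not pass. With an array left out these numbers were 1710 and 380. The 55 genes were picked among those past the threshold on the same arrays, so their kept direction is not further evidence. No paired analysis was possible because each animal number occurs in 1 group only. Why the counts moved was not tested.

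The count of 266 interaction genes became 549 with arrays centred on their median, 531 with all probe sets, 1537 with array weights, 629 with a covariate for the 3' to 5' difference of Actb, 562 with one for Gapdh, and 102 with one for the heart muscle list mean. It was 58 without the 6 arrays of high muscle markers, 410 when HCR sham 0432 was left out with them (chosen after seeing the data, with 160 of the 266 among them), and 3 at a size of at least 1 log2. It stayed within 1.5 times of 266 under quantile normalization (294), an intensity minimum of 64 (322), averaged probe sets (252), a pseudocount of 1 (236) or 64 (272), the square root scale (274), a variance trend (252) and the interquartile range as a covariate (188). With 1 array left out it ran from 81 to 768.

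Smoke in HCR gave 12324 with all probe sets, 3023 with the interquartile range as a covariate and 94 at a size of at least 1 log2, and smoke in LCR 13229 with all probe sets and 158 at that size. The sham line difference gave 815 centred, 1240 with all probe sets, 946 with array weights, 827 with the interquartile range, 21 at that size, and 314 to 830 with 1 array left out. The smoke line difference gave 2860 with array weights, 364 with the interquartile range, 487 without the 6 arrays and 9 at that size.

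Some interactions that did not pass changed sign. Cyp1a1 was 0.13 with a pseudocount of 64, 5.07 on the square root scale, and -0.15 to 0.13 with 1 array left out. Cxcl1 was -0.003 with array weights, and Mmp12 was -0.41 to 0.017 with 1 array left out.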

Other observations

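Several other lists held no call in the interaction. Over all genes 2657 of 14217 had an unadjusted p under 0.05. With smoke, 17.7% of all genes rose in HCR and 22.7% in LCR, and 30.4% and 27.9% fell. Of 15 alveolar type 1 markers 13 fell in HCR and 12 in LCR, and the median interaction was 0.08 with no call in limma and 2 at an unadjusted p under 0.05. MHC class II genes, which present antigen, rose for 7 of 8 in both lines, with a median interaction of 0.15, no call and 1 at an unadjusted p under 0.05. Iron and metal handling genes rose for 12 of 19 in HCR and 13 in LCR, with a median of 0.21, no call and 8 at an unadjusted p under 0.05. Lipid efflux and storage genes had a median of 0.23, no call and 8 of 17 at an unadjusted p under 0.05. Matrix and fibroblast genes fell for 18 of 41 in each line, with a median interaction of 0.00, no call and 10 at an unadjusted p under 0.05. Clock genes had a median of -0.05, with no call among 17 and 0 at an unadjusted p under 0.05.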
